A study of Mus musculus with 6 samples.

Results

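Macrophage scavenger and lectin receptor genes were followed in Renca tumors grown at 2 sites. The 9 genes were listed by name, with earlier results of these data known (Mrc1, Mgl2, Clec10a, Msr1, Stab1, Trem2, Marco, Cd5l and Pf4). All 9 were measured among the 19938 genes with a transcript cluster of their own. Of the 9, Cd5l and Pf4 encode secreted proteins rather than receptors. Renca is a mouse renal carcinoma cell line from a BALB/c mouse. The cells had been placed in the cortex of the kidney of 3 BALB/c mice (intrakidney tumors) or under the skin of 3 further BALB/c mice (subcutaneous tumors). No treatment beyond the injection was named, tumors were removed and frozen on day 12, and total RNA of each whole tumor was hybridised to Mouse Gene 1.0 ST arrays. Age and sex of the mice were not given in the labels, and all tumors came from 1 cell line.

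Scavenger receptors bind modified lipoproteins, dying cells and microbial surfaces and carry them to the lysosome, and C-type lectins bind sugar chains on glycoproteins in a calcium-dependent way. In tumors and healing tissue, macrophages exposed to interleukin 4 or interleukin 13 are known to carry many of these receptors, as do resident macrophages of many organs. Several of the genes are also used outside macrophages: Stab1 and Mrc1 by sinusoidal endothelium, Mgl2 and Clec10a by dendritic cells, and Pf4 by platelets and their precursors. In whole tumors, fewer cells of a type and less RNA per cell cannot be told apart.

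The values are log2 RMA intensities, where a difference of 1 is a doubling, and log2 fold changes are intrakidney minus subcutaneous. The array medians lay between 7.08 and 7.11, and arrays correlated across genes at 0.990 to 0.997. The 10 genes listed for renal carcinoma epithelium, among them Krt8 (13.16 to 13.35) and Pax8 (10.04 to 10.18), averaged 9.66 to 9.82 in intrakidney and 9.74 to 9.81 in subcutaneous tumors. Not all 10 were level: the groups did not overlap for 1 gene lower and 1 higher in the intrakidney tumors, beside 6.53% and 8.41% of all genes. These were Cdh1 (-0.52, adjusted p = 0.209 in limma) and Car9 (0.20, adjusted p = 0.498). Over 15 measured general macrophage genes the average was 10.32 to 10.65 in intrakidney and 10.44 to 10.54 in subcutaneous tumors. No detection call came with the values, and RMA gives no value of 0, so a dim gene cannot be called absent. Averaged over 11 genes of the proximal tubule, intrakidney tumors 1, 2 and 3 read 6.31, 6.75 and 7.16. The subcutaneous arrays read 6.41 to 6.57, so intrakidney tumors 2 and 3 lay above all of them in this mean. Of the 11 genes 10 had a log2 fold change above 0 and 1, Aqp1, below 0 (-1.04, adjusted p = 0.114 in limma). Aqp1 measured 8.60, 7.87 and 7.94 in the intrakidney and 9.16, 9.07 and 9.29 in the subcutaneous tumors.

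The lectin genes Clec10a and Mgl2, the mannose receptor gene Mrc1, the scavenger receptor genes Msr1 and Stab1, and Cd5l and Pf4 were measured higher in every intrakidney tumor than in any subcutaneous tumor. Trem2 and Marco overlapped between the sites. The differences ran from -0.10 (Trem2) to 1.00 (Cd5l) on the log2 scale, with a median of 0.39 beside a median of -0.0058 over all genes. None of the 9 passed an adjusted p of 0.05 in limma over all genes, where 46 genes, 0.231%, passed. At an unadjusted p of 0.05, 6 of the 9 were higher and 0 lower, beside 4.72% of all genes higher and 3.71% lower (8.43% in all). The 7 genes with separated groups stood beside 8.41% of all genes with every intrakidney array above every subcutaneous array, and 0 members beside 6.53% with the reverse. As the members were chosen with earlier results of these data known, the counts beside these shares are a description and not a test. The call depended on the setting: 3 of the 9 (Clec10a, Msr1 and Cd5l) passed when each array was weighted by its fit to its group, beside 3.13% of all genes, 2 (Mrc1 and Msr1) passed once the prior was robust and followed intensity, beside 0.692% of all genes, and 1 (Cd5l) passed without intrakidney tumor 2, beside 0.155% of all genes.

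**Figure D1:**
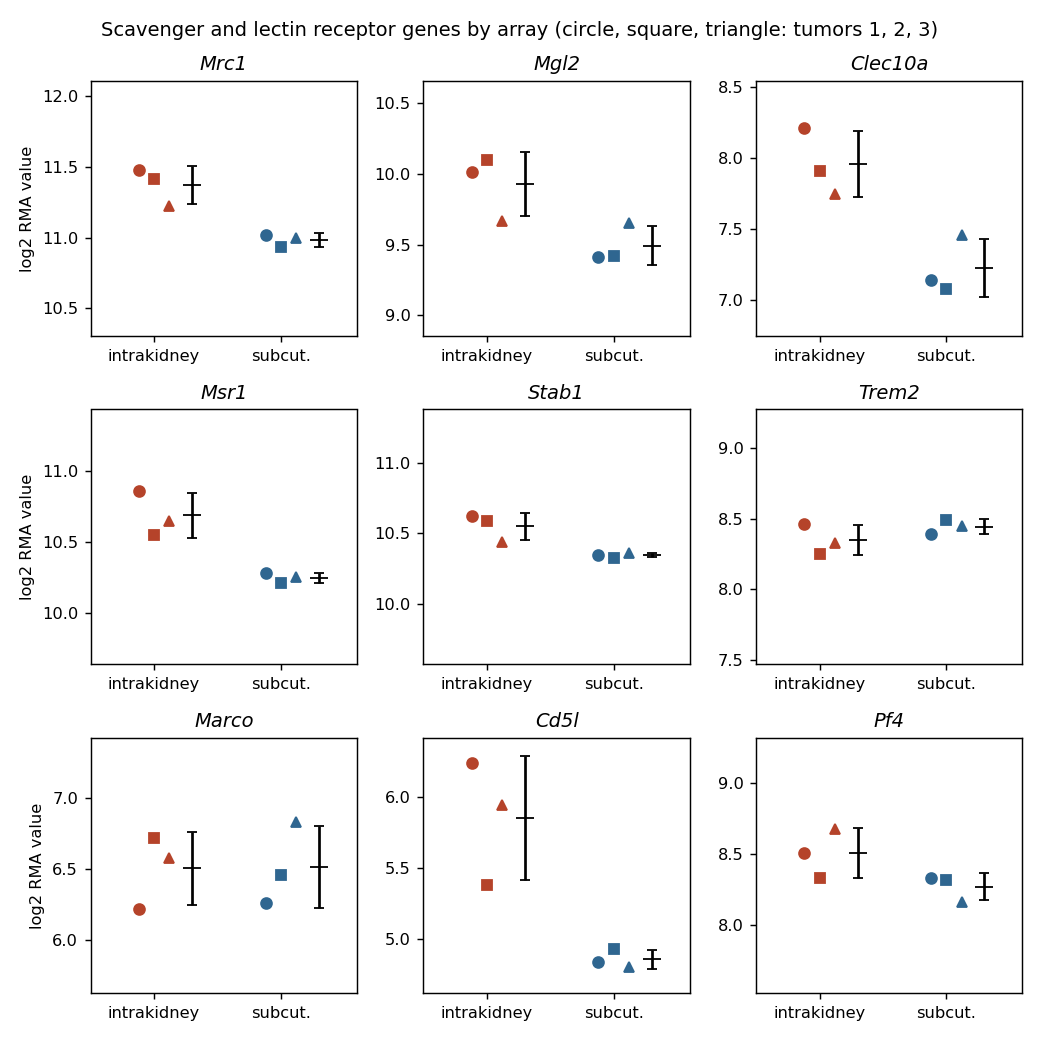
Log2 RMA value of each of the 9 genes on each array (vertical axis, each panel spanning the same 1.8 log2 units), with intrakidney tumors in red and subcutaneous tumors in blue, and the group mean with its SD in black (n = 3). Red points lie above all blue points for 7 genes, by 0.007 (Pf4) to 0.45 (Cd5l), and the colours overlap for Trem2 and Marco.

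The mannose receptor gene Mrc1 (transcript cluster 10469358) encodes an endocytic C-type lectin that clears mannose-bearing glycoproteins. It measured 11.48, 11.41 and 11.22 in intrakidney tumors 1, 2 and 3 and 11.02, 10.93 and 11.00 in subcutaneous tumors 1, 2 and 3. The groups did not overlap, and the intrakidney values spread over 0.26 and the subcutaneous ones over 0.08. The difference was 0.39 ± 0.09 (SE), a fold of 1.31 with a 95% interval of 1.14 to 1.5, and missed the threshold (adjusted p = 0.212).

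Mgl2 and Clec10a encode galactose-type C-type lectins of macrophages and dendritic cells and are neighbouring genes on chromosome 11 in GRCm38.p6. They are close copies of each other, so the probes of either could take up transcripts of the other, and the probe sequences were not used here. Clec10a (transcript cluster 10377782) measured 8.21, 7.91 and 7.75 in the intrakidney and 7.14, 7.08 and 7.46 in the subcutaneous tumors. The lowest intrakidney array stood 0.29 above the highest subcutaneous array. Its difference of 0.73 ± 0.14 (SE), or 1.65-fold (95% interval 1.31 to 2.09), had an adjusted p of 0.152. Mgl2 (transcript cluster 10377774) measured 10.01, 10.10 and 9.67 against 9.41, 9.42 and 9.65. Intrakidney tumor 3 and subcutaneous tumor 3 lay only 0.024 apart. The difference was 0.43 ± 0.13 (SE, 1.35-fold, adjusted p = 0.379). Subcutaneous tumor 3 was the highest of its group for both lectin genes and intrakidney tumor 3 the lowest of its group.

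Among the class A scavenger receptors, whose trimers carry a collagen-like stalk, Msr1 was separated between the sites and Marco was not. Msr1 (transcript cluster 10578264), a receptor for modified low-density lipoprotein, measured 10.86, 10.55 and 10.65 in the intrakidney and 10.28, 10.21 and 10.25 in the subcutaneous tumors. The groups stood 0.27 apart at their nearest arrays, with a subcutaneous spread of 0.07. Its difference was 0.44 ± 0.09 (SE, 1.36-fold, 95% interval 1.17 to 1.57, adjusted p = 0.180). Marco (transcript cluster 10357261), known from macrophages of the splenic marginal zone, lung and peritoneum, measured 6.22, 6.72 and 6.58 against 6.26, 6.46 and 6.83. Both groups spanned about the same levels, 0.50 and 0.57 wide. The difference of -0.01 ± 0.17 (SE, adjusted p = 0.997) had a 95% interval of -0.41 to 0.40, which holds values as large as the Mrc1 difference. Whether Msr1 and Marco differ from each other was not tested. Of the further class A genes on the scavenger receptor list, named after their values were seen, Colec12 differed by 0.26 (adjusted p = 0.497), Scara5, a ferritin receptor gene, by -0.25 (adjusted p = 0.434) and Scara3 by -0.13 (adjusted p = 0.915). The groups did not overlap for Colec12, higher in the intrakidney tumors, or for Scara5, higher in the subcutaneous tumors, and overlapped for Scara3.

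Stab1 (transcript cluster 10418506) encodes stabilin-1, a receptor that takes up acetylated lipoprotein and matrix proteins. It measured 10.62, 10.59 and 10.44 in the intrakidney and 10.35, 10.33 and 10.36 in the subcutaneous tumors, which differed among themselves by 0.03. The groups were apart by 0.08, and the difference was 0.21 ± 0.07 (SE, 1.15-fold, adjusted p = 0.492). The related Stab2, a hyaluronan receptor of sinusoidal endothelium, differed by 0.03 (adjusted p = 0.972). Of 8 sinusoidal and lymphatic endothelial genes 0 passed the threshold, with a median of 0.04 and list means of 7.46 to 7.64 in intrakidney and 7.34 to 7.57 in subcutaneous tumors. Each of these 8 lay above 0. In limma 2 of them, Lyve1 and Pdpn, were higher and 0 lower at an unadjusted p of 0.05, beside 4.72% and 3.71% of all genes. For the same 2 the groups did not overlap, higher in the intrakidney tumors, beside 8.41% of all genes. Lyve1, a hyaluronan receptor of lymphatic endothelium and of some resident macrophages, differed by 0.54 (adjusted p = 0.450) and Pdpn by 0.25 (adjusted p = 0.404). Of 8 general endothelial genes 1, Emcn, rose (adjusted p = 0.0460, or 0.0606 to 0.247 without any single array), and the list means were 8.50 to 8.53 against 8.11 to 8.27. All 8 lay above 0, with a median of 0.30. At an unadjusted p of 0.05 in limma, 5 of them were higher and 0 lower, beside 4.72% and 3.71% of all genes. The groups did not overlap for 6, each higher in the intrakidney tumors, beside 8.41% of all genes. The part of these cells in the Stab1 and Mrc1 values was not tested.

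Trem2 (transcript cluster 10445781), a lipid-binding receptor that signals through the adaptor encoded by Tyrobp, overlapped between the sites. It measured 8.46, 8.25 and 8.33 in the intrakidney and 8.39, 8.49 and 8.45 in the subcutaneous tumors. Intrakidney tumor 1 lay within the subcutaneous range and the other intrakidney arrays below it. The difference was -0.10 ± 0.08 (SE, adjusted p = 0.836), with a 95% interval of 0.823 to 1.06 on the fold scale. Among 13 genes of the TREM family, its adaptors and downstream genes 0 passed the threshold, and the median was 0.07. Of the 13, 3 were higher and 0 lower at an unadjusted p of 0.05 in limma, beside 4.72% and 3.71% of all genes. Tyrobp differed by 0.07 (adjusted p = 0.916). Lpl, the lipoprotein lipase also made by adipocytes, differed by 0.82 (adjusted p = 0.142), Trem3 by 0.25 (adjusted p = 0.431) and Treml2 by 0.22 (adjusted p = 0.568).

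Cd5l (transcript cluster 10492964) encodes a secreted protein of tissue macrophages, built of scavenger receptor cysteine-rich domains, that protects macrophages from cell death. It measured 6.24, 5.38 and 5.95 in the intrakidney and 4.84, 4.93 and 4.80 in the subcutaneous tumors. The intrakidney tumors spread over 0.86 and the subcutaneous tumors over 0.13, and the nearest arrays of the groups were 0.45 apart. The difference was 1.00 ± 0.20 (SE), a fold of 2.00 with a 95% interval of 1.45 to 2.75 and an adjusted p of 0.152. Without intrakidney tumor 2, the lowest of its group, it was 1.24 (adjusted p = 0.0239). The mean level of Cd5l stood at the 15.1 percentile of all genes and that of Marco at the 34.0 percentile, and RMA compresses differences of such dim genes.

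Pf4 (transcript cluster 10523134) encodes a CXC chemokine stored in platelet granules and also transcribed in macrophages. It measured 8.51, 8.33 and 8.68 in the intrakidney and 8.33, 8.32 and 8.16 in the subcutaneous tumors. The groups were apart by only 0.007, and overlapped after quantile normalization, after median centring, and with the general macrophage mean subtracted. The difference was 0.24 ± 0.10 (SE, 1.18-fold, 95% interval 0.998 to 1.40, adjusted p = 0.597). Of 8 measured platelet and megakaryocyte genes 0 passed, 4 lay above and 4 below 0, the median was 0.01, and list means were 6.71 to 6.97 against 6.87 to 6.94. The integrin gene Itga2b differed by 0.05 (adjusted p = 0.953), and Ppbp, a platelet chemokine gene next to Pf4 on chromosome 5, by 0.08 (adjusted p = 0.954). Cxcr3, which encodes a receptor of several CXC chemokines, differed by 0.02 (adjusted p = 0.982), and Cxcl5, a neutrophil-attracting chemokine gene, by 0.68 (adjusted p = 0.209).

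**Figure D2:**
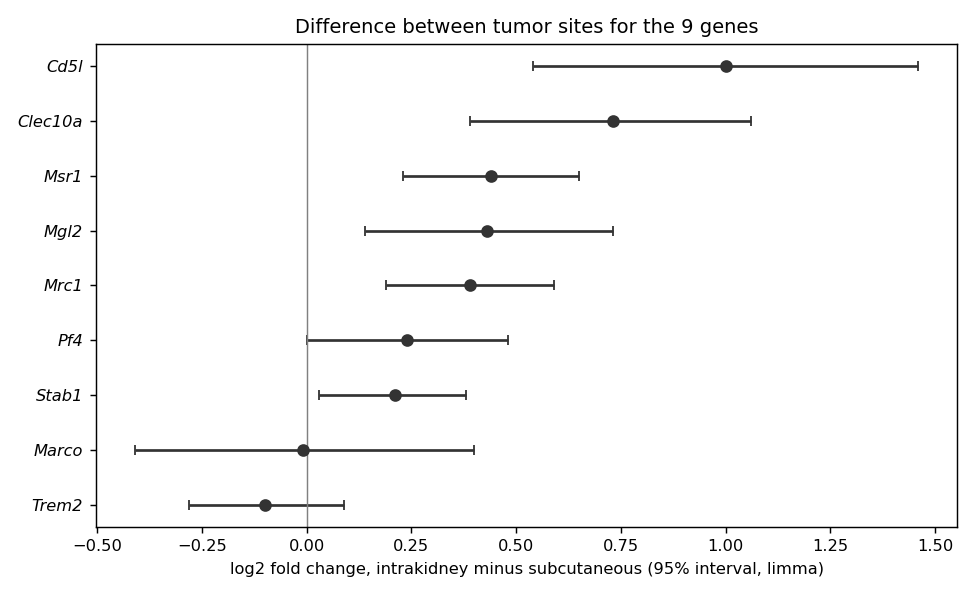
Log2 fold change, intrakidney minus subcutaneous (horizontal axis), of each of the 9 genes with its 95% interval from limma (n = 3 per group). The intervals of Cd5l, Clec10a, Msr1, Mgl2, Mrc1 and Stab1 lie above 0 before adjustment over all genes, and those of Pf4, Marco and Trem2 include it.

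General macrophage genes were centred near 0 between the sites. Of 15 such genes 0 passed the threshold, 8 lay above and 7 below 0, the median was 0.01, and the list mean differed by 0.00 between sites. At an unadjusted p of 0.05 in limma, 1 was higher, Cd14 (0.44, adjusted p = 0.0744), and 0 lower, beside 4.72% and 3.71% of all genes. The groups did not overlap for 2 genes, Cd14 and Lyz2 (0.13), both higher in the intrakidney tumors, beside 8.41% of all genes, and overlapped for 13. The receptor gene Csf1r, which most macrophages need for survival, measured 10.92, 10.72 and 10.47 in the intrakidney and 10.92, 10.85 and 10.75 in the subcutaneous tumors. Adgre1, the gene of the F4/80 antigen, measured 10.08, 9.63 and 9.33 against 9.75, 9.73 and 9.71. Within the intrakidney group both were highest in tumor 1 and lowest in tumor 3, as were Mrc1, Clec10a and Stab1. With the general macrophage mean of each array taken from every gene, an alternative added once the data had been seen, 5 of the 9 members were higher at an unadjusted p of 0.05, beside 1.72% of all genes. Those relative differences were 1.00 ± 0.18 for Cd5l, 0.73 ± 0.14 for Clec10a, 0.44 ± 0.12 for Msr1, 0.43 ± 0.14 for Mgl2 and 0.39 ± 0.12 for Mrc1 (SE). None passed the adjusted threshold, and the lowest adjusted p was 0.0925 (Cd5l). The subtracted mean differed by 0.00 between sites, so the subtraction could hardly move any difference and mainly changed its spread. The share of all genes higher at an unadjusted p of 0.05 fell from 4.72% to 1.72%, so the members' count beside it gives no separate support. With the mean subtracted, Clec10a stood at 0.80, 0.69 and 0.68 above its subcutaneous mean in the intrakidney tumors. The spread of Clec10a in that group was thus narrower than in the values as deposited. This did not hold for every member. Marco stood at -0.47, 0.21 and 0.23 and Pf4 at 0.07, 0.07 and 0.57, both wider than as deposited.

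Genes listed for serosal resident macrophages, the macrophages of the body cavities, also lay higher in the intrakidney tumors. Of 10 measured genes of that list 5 rose past the threshold, beside 0.13% of all genes, and 0 fell. The 5 were Fabp4 (2.08), Alox15 (1.70), Vsig4 (1.37), F13a1 (1.14) and Folr2 (0.58 on the log2 scale). In limma 9 of the 10 were higher and 0 lower at an unadjusted p of 0.05, beside 4.72% and 3.71% of all genes. For 9 the groups did not overlap, each higher in the intrakidney tumors, beside 8.41% of all genes. Leaving out 1 array ended the call of F13a1 or Folr2 whichever array it was, that of Vsig4 for every array but intrakidney tumor 3, that of Alox15 for each subcutaneous array, and that of Fabp4 for subcutaneous tumor 2 (adjusted p up to 0.253, 0.16 for Vsig4, 0.0827 for Alox15 and 0.0587 for Fabp4). The median was 0.86, and the list mean was 7.71 to 7.89 in intrakidney and 6.68 to 6.85 in subcutaneous tumors. The defining transcription factor gene Gata6 measured 6.40, 6.34 and 6.39 against 5.94, 6.24 and 6.32 (difference 0.21, adjusted p = 0.683). Timd4, a phosphatidylserine receptor gene of resident macrophages, differed by 0.31 (adjusted p = 0.408). Fabp4, a fatty acid-binding protein gene, is also on the adipocyte list, and Lyve1 is shared with the lymphatic endothelial list. Of 9 adipocyte genes 3 rose past the threshold, Fabp4 among them, beside 0.13% of all genes. Their list means were 7.69 to 7.80 against 6.82 to 6.97. Of the 8 genes listed for splenic and liver macrophages 0 passed, and the median was 0.12. At an unadjusted p of 0.05 in limma, 3 of them were higher and 0 lower, beside 4.72% and 3.71% of all genes. These were Cd163 (1.04), Slc40a1 (1.03) and Timd4 (0.31), while Spic, a transcription factor gene of red pulp macrophages, was at 0.06 (adjusted p = 0.907). Of 10 fibroblast genes 1 fell, the matrix protein gene Postn by 1.66 (adjusted p = 0.0460, and lost, at up to 0.253, without any array but intrakidney tumor 3), and 8 lay below 0, with list means of 8.69 to 9.37 against 9.41 to 9.55. Of 10 T cell genes 0 passed and all 10 lay below 0, with list means of 6.76 to 7.09 against 7.10 to 7.29. Among them 3 were lower at an unadjusted p of 0.05 in limma, beside 3.71% of all genes. The part of any of these cells in the members' values was not tested.

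**Figure D3:**
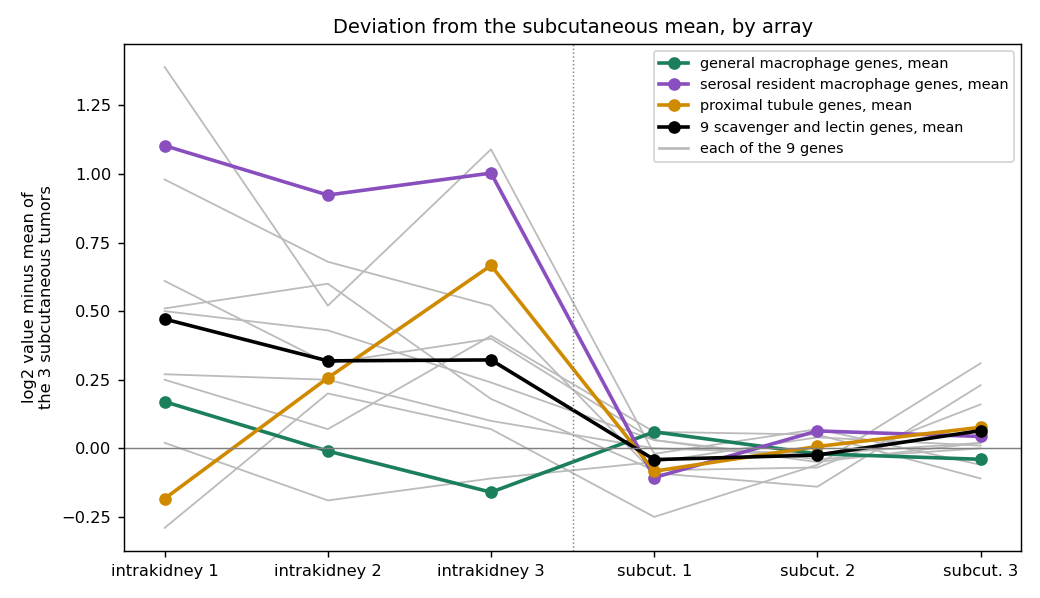
Log2 value minus the mean of the 3 subcutaneous tumors (vertical axis) for each array, with each of the 9 genes in grey, their mean in black, and list means of general macrophage (green), serosal resident macrophage (purple) and proximal tubule genes (orange). The black and purple lines lie above 0 in all 3 intrakidney tumors, the green line lies on both sides of 0, and the orange line is highest in intrakidney tumor 3.

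Other receptors of the same families were mixed in direction. Of 18 further scavenger receptor genes 1 rose, Vsig4, a complement receptor gene of resident macrophages, which measured 6.65, 6.44 and 6.09 in the intrakidney and 4.86, 5.26 and 4.96 in the subcutaneous tumors (adjusted p = 0.0291). Vsig4 and Timd4 stand on this list and on that of serosal resident macrophages. The hemoglobin-haptoglobin receptor gene Cd163 differed by 1.04 ± 0.16 (SE, 2.06-fold, adjusted p = 0.0744) and Olr1, a receptor gene for oxidised lipoprotein, by 0.64 ± 0.09 (SE, adjusted p = 0.0598). The lipid receptor gene Cd36 differed by 0.09 (adjusted p = 0.922). The median over the 18 genes was 0.04, with 11 above and 7 below 0. At an unadjusted p of 0.05 in limma, 5 of the 18 were higher and 1 lower, beside 4.72% and 3.71% of all genes. The groups did not overlap for 6 genes higher and 1 lower in the intrakidney tumors, beside 8.41% and 6.53% of all genes. Of 25 further lectin receptor genes 1 fell, Cd207, the langerin gene of epidermal Langerhans cells, by 0.63 (adjusted p = 0.0299), and 0 rose, with a median of 0.03. The Cd207 call was lost without any single array (adjusted p = 0.0713 to 0.179). At an unadjusted p of 0.05 in limma, 2 of the 25 were higher and 3 lower, beside 4.72% and 3.71% of all genes. The groups did not overlap for 3 genes higher and 3 lower in the intrakidney tumors, beside 8.41% and 6.53% of all genes. Cd33, a sialic acid-binding receptor gene of myeloid cells, differed by -0.52 (adjusted p = 0.152), and Ly75, an endocytic receptor gene of dendritic cells, by -0.37 (adjusted p = 0.220). The sialoadhesin gene Siglec1 differed by 0.17 (adjusted p = 0.668) and Clec7a, the gene of the beta-glucan receptor dectin-1, by 0.02 (adjusted p = 0.991). Of 10 dendritic cell genes 1, Cd207, fell and 0 rose, with list means of 7.11 to 7.26 against 7.23 to 7.29. The part of dendritic cells in the Clec10a and Mgl2 values was not tested.

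**Figure D4:**
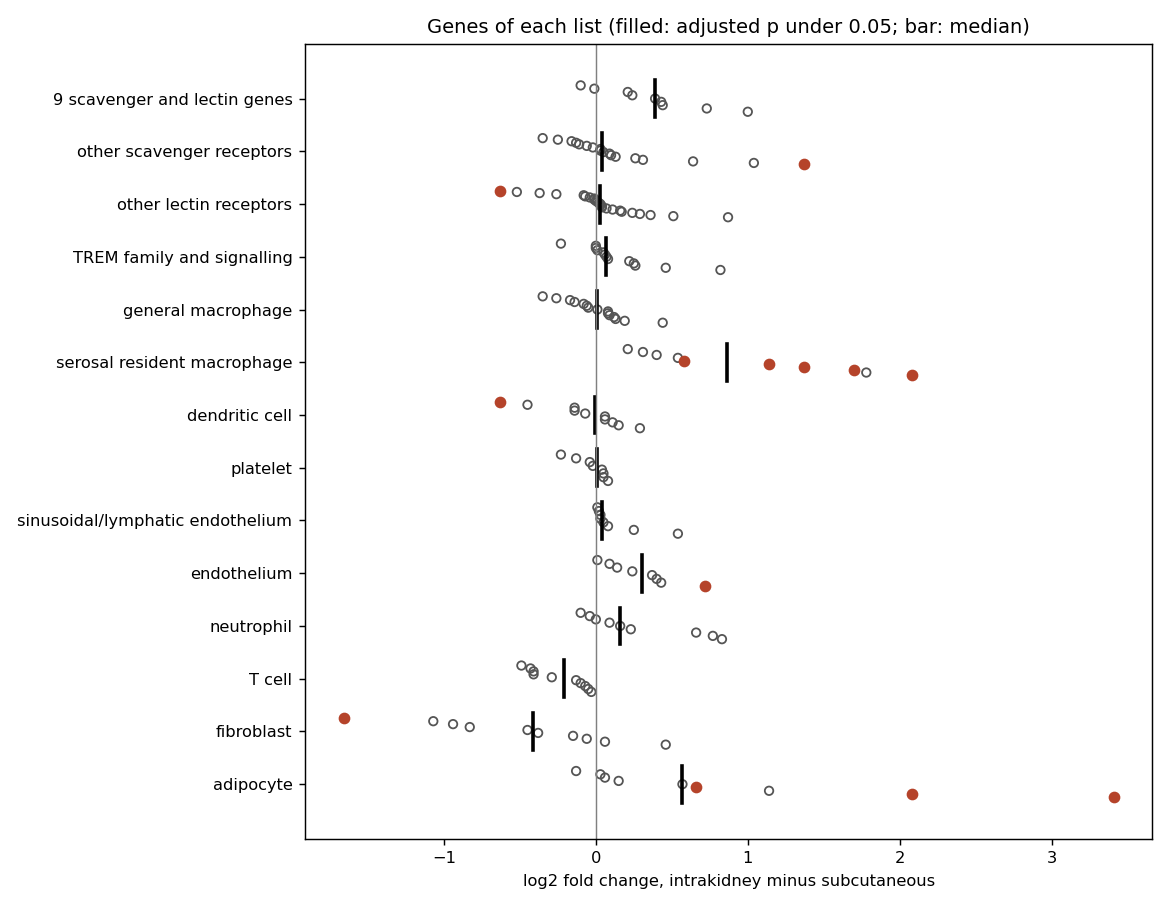
Log2 fold change, intrakidney minus subcutaneous (horizontal axis), of every measured gene of 14 lists, with filled points for an adjusted p under 0.05 and a bar at each list's median. The bar of the 9 genes is at 0.39, that of serosal resident macrophage genes at 0.86, and that of adipocyte genes at 0.57. The bars of T cell and fibroblast genes are at -0.21 and -0.41, those of endothelial and neutrophil genes at 0.30 and 0.16, and those of the remaining lists lie between -0.01 and 0.07. Genes that stand on more than 1 list are drawn in each.

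The genes known to act on these receptors showed no call. Of 17 measured regulators 0 passed, 7 lay above and 10 below 0, and the median was -0.03. In limma 3 were higher and 0 lower at an unadjusted p of 0.05, beside 4.72% and 3.71% of all genes. For 6 of the 17 the groups did not overlap, each higher in the intrakidney tumors, beside 8.41% of all genes. Spi1, the gene of the macrophage transcription factor PU.1, measured 9.0, 9.01 and 8.87 in the intrakidney and 8.50, 8.52 and 8.75 in the subcutaneous tumors. These groups did not overlap, and the difference of 0.37 ± 0.09 (SE) had an adjusted p of 0.266. Csf1, the growth factor gene for macrophages, differed by 0.33 (adjusted p = 0.414) and the interleukin 4 receptor gene Il4ra by 0.19 (adjusted p = 0.510). Nr1h3, which encodes a liver X receptor known to act on Cd5l, differed by 0.18 (adjusted p = 0.620).

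Promoter windows from RefSeq (GRCm38.p6, 250 bases before to 50 bases after the gene start) were found for 7 of the 9 genes, all but Clec10a and Msr1. They were searched on both strands for the core of the PU.1 motif (GAGGAA), for the motif of STAT6, a factor that acts downstream of interleukin 4, and for the nuclear receptor element AGGTCA. The PU.1 core was in all 7 windows, against 28.3% of the 32851 windows of that length in the table. Mrc1 held 3 matches, and the windows of Trem2 and Marco, whose values overlapped between sites, held 1 each like those of Mgl2, Stab1, Cd5l and Pf4. The STAT6 motif was in the Cd5l window only, against 6.95% of all windows, and AGGTCA in the Trem2 window only, against 16.3%. A match describes the letters and is not a bound site, and the members were not chosen at random. The windows of Mrc1, Mgl2 and Cd5l are shown because these genes lay higher in all intrakidney tumors, and those of Trem2 and Marco because they did not, each 5′ to 3′ on the strand of the gene with motif matches in capitals.
Mrc1 (chr2:14229164-14229463, plus strand): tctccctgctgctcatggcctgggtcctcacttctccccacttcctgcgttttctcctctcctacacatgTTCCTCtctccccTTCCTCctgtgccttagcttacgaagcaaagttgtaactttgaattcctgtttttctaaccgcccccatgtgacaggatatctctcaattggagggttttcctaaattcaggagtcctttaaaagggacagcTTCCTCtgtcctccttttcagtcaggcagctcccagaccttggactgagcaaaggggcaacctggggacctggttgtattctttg
Mgl2 (chr11:70130107-70130406, plus strand): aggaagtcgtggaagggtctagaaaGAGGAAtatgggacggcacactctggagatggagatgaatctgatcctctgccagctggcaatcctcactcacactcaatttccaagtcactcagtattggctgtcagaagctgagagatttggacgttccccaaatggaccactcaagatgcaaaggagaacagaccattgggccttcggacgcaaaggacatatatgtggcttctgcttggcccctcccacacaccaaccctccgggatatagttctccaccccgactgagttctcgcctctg
Cd5l (chr3:87357631-87357930, plus strand): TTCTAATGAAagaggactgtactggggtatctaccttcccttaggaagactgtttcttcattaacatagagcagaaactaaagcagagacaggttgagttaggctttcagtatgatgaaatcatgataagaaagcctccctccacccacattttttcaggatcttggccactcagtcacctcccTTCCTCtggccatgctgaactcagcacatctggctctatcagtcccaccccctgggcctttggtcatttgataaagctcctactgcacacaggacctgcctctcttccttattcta
Trem2 (chr17:48346151-48346450, plus strand): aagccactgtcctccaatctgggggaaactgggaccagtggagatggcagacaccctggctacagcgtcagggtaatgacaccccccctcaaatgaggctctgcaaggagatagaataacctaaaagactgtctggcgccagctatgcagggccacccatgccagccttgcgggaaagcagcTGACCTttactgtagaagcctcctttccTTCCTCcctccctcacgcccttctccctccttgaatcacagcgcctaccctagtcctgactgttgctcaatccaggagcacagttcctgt
Marco (chr1:120504975-120505274, minus strand): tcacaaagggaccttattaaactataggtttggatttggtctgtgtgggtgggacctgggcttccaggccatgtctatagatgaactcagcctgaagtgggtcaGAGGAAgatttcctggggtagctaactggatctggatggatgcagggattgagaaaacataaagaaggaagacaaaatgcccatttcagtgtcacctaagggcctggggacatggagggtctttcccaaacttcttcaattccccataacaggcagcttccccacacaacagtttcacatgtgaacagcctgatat
In the Mrc1 window the PU.1 matches begin 180, 167 and 35 bases before the gene start and read TTCCTC, the reverse complement of the core. In the Cd5l window the match begins 66 bases before the start and in the Trem2 window 40 bases before it.

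**Figure D5:**
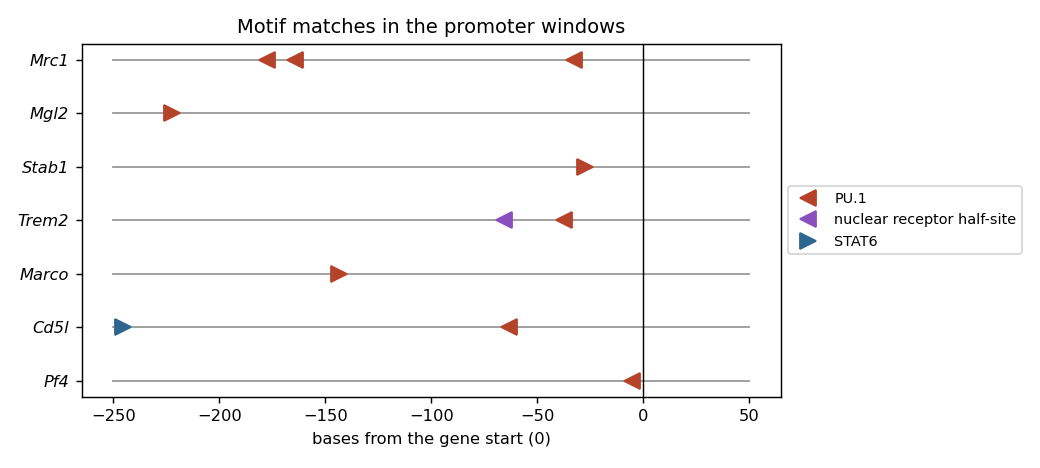
Position of motif matches in the promoter windows of 7 genes (horizontal axis, bases from the gene start), with colours for the PU.1 core, the STAT6 motif and the nuclear receptor element, and arrowheads for the strand. Every gene carries at least 1 PU.1 match, and Mrc1 carries 3.

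The genes nearest in pattern were found by the root-mean-square difference of log2 values, each gene centred on its mean over the 6 arrays. Nearest to the mean profile of the 9 members were Bysl (0.030), Eef1e1 (0.043), Noct (0.045), Ninj1 (0.046) and Zfy2 (0.046). Among single members, Clec10a and Cd5l spanned at least 1 log2 unit over the arrays, 1.12 and 1.44. Nearest to Clec10a were the monocyte chemokine gene Ccl7 (0.072), Prtn3 (0.098) and Ch25h, the gene of cholesterol 25-hydroxylase (0.131). Nearest to Cd5l were the adipokine gene Adipoq (0.116), Lrg1 (0.179) and Plod2 (0.215).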

How the data were processed

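RNA of 3 intrakidney and 3 subcutaneous Renca tumors, each from its own mouse per the labels, was hybridised to Affymetrix whole-transcript mouse arrays. Per the submitters' processing notes, the authors computed the deposited log2 values by RMA in affy, a method that removes background, brings arrays to 1 scale and combines the probes of a cluster, and that compresses differences of dim genes. Their versions, settings and genome build are not given in the sources used here. The log2 scale was read from the values (2.31 to 15.07). Precision is limited by the number of arrays.

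Of 35512 transcript clusters, 21789 were paired with exactly 1 gene symbol by the platform annotation, 1621 with several, and 12102 were unnamed here. A gene was read from its cluster of highest mean over the 6 arrays, giving 19938 genes. The sites were compared by limma 3.58.1 under R 4.3.3 (lmFit, eBayes, two-sided, Benjamini-Hochberg over all genes, threshold 0.05), and the fit was tested on simulated data. Intervals are 95% limits of the moderated fit. Pathway and cell type lists were counted, not tested. The members and lists were chosen with earlier results of these data known. All 9 members were named, with up to 3 genes of each list by adjusted p, a fixed set of 15 genes, and genes nearest in pattern by root-mean-square difference. Krt8, Pax8, Gata6, Stab2, Emcn and Postn were named as markers or relatives. Alternatives were other normalizations, filters, priors and weights, a replicate block, and leaving out arrays.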

Additional observations from a re-analysis of the deposited data

How the results depend on the processing

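Mrc1, Clec10a, Msr1 and Cd5l passed the threshold in 1 to 3 of the settings run, and the other 5 members in none. Of all genes, 46 passed as analysed, 101 after dropping genes below percentile 40 of the mean level (which left out Marco and Cd5l), 74 with an offset of 16 on the linear scale, 138 with an intensity trend and robust prior, 624 with array weights, 0 in limma over every transcript cluster (2206 at an unadjusted p of 0.05), 5 at an adjusted p of 0.01, 30 without intrakidney tumors 2 and 3, 21 with the general macrophage mean subtracted (the last 2 chosen after seeing the data), and 2 to 33 when single arrays were left out. Dropping subcutaneous tumor 1, 2 or 3 left 2, 3 and 4 calls, and dropping intrakidney tumor 1 left 21. Of the members 0 passed as analysed, 2 with the trend and robust prior, 3 with array weights, 1 (Cd5l) without intrakidney tumors 2 and 3, and 0 to 1 when single arrays were left out. The members' median was 0.50 without intrakidney tumors 2 and 3 and 0.33 to 0.46 when single arrays were left out. The replicate numbers were not treated as pairs in the main fit. Same-numbered arrays correlated in their deviations at 0.374, -0.159 and 0.104. No such value was kept for arrays of different numbers, so these 3 values cannot decide whether the numbers pair the arrays. With the replicate number as a block 0 genes passed in limma (1825 at an unadjusted p of 0.05).

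Small differences turned in sign. Trem2 was 0.02 and Csf1r 0.08 without intrakidney tumors 2 and 3, where Stab2 was -0.13, Adgre1 0.35, Itga2b -0.07 and Ppbp -0.11. Marco was 0.00 after quantile normalization, 0.10 with array weights, and -0.29 to 0.15 over all settings. With array weights Tyrobp was -0.00, Cxcr3 -0.01 and Clec7a -0.07. When single arrays were left out, the ranges that crossed 0 were -0.14 to 0.15 (Marco), -0.01 to 0.11 (Tyrobp), -0.25 to 0.12 (Adgre1), -0.03 to 0.11 (Stab2), -0.29 to 0.05 (Scara3), -0.03 to 0.10 (Itga2b), -0.15 to 0.22 (Ppbp), -0.04 to 0.10 (Cxcr3), -0.11 to 0.14 (Clec7a) and -0.03 to 0.20 (Cd36). The causes were not tested.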
